A study of Bos taurus with 36 samples.

Results

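The always 2× milked rear glands of 6 cows were compared between day 40 and day 21 of lactation. The members were the 12 arrays whose labels name control tissue of day 21 or day 40, 6 for each day, of 36 arrays in the series, and arrays of the same replicate number were paired as the same cow. The cows were multiparous Holsteins. In each cow the left side of the udder was milked 2× daily throughout, whereas the right side was milked 4× daily on days 1 to 21 and 2× daily afterwards. The left rear gland was biopsied on both days, under sedation and local anesthesia and after a milking, so the day 40 sample was a repeat biopsy of a gland that had been biopsied before. Day of lactation and the earlier biopsy of the gland cannot be told apart in these samples. Neither day was compared with a gland of an untreated cow, and the other side of every udder had been milked 4×. Each biopsy was hybridized to 1 GeneChip Bovine Genome Array, and the values are log2 signals, on which a difference of 1 is a 2-fold difference.

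Early lactation is the time in which a dairy cow's milk yield climbs toward its peak. The alveoli of the gland are lined by secretory epithelium, which makes caseins, whey proteins, lactose and milk fat, and lie in a stroma of fibroblasts, collagen, capillaries and resident leukocytes. In this period the epithelium is already differentiated, and the ducts, vessels and matrix around it continue to adapt to the volume of milk. In bulk tissue of this kind, fewer cells of a type and less RNA for each cell cannot be told apart. The tissue carried the markers of lactating mammary gland on every array: the mean log2 value over 7 caseins and major whey proteins was from 14.02 to 14.30 on day 21 and from 14.19 to 14.32 on day 40, near the highest value of the arrays, 15.1. Red blood cell markers were dim, with 6 of 7 at a mean log2 value under 5, and 7 of 18 skeletal muscle markers were as dim.

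Of 24016 probe sets, 0 passed an adjusted p of 0.05 in limma, and the smallest adjusted p was 0.252. At an unadjusted p under 0.05, 836 probe sets (3.48%) had higher values on day 40 and 1052 (4.38%) had lower values, together 7.86%, where chance gives 1201 probe sets. In the text that follows, "higher" and "lower" are calls at that unadjusted p, and no single gene passed after adjustment. At an unadjusted p under 0.01 the count was 411 (1.71%). Differences were small: the median of the called probe sets was 0.25 among the higher and −0.27 among the lower, 20 of the higher and 49 of the lower differed by at least 1.5-fold, and 1 and 2 by at least 2-fold. Among the called probe sets 322 were higher in 6 of 6 cows and 397 were lower in 6 of 6 cows. Over all 24016 probe sets, called or not, 497 were higher and 579 were lower in 6 of 6 cows. The share of calls that were higher, 44.3%, became 54.4% with each array centered on its median and 83.8% with arrays scaled to 6 reference genes, whose median difference was −0.06. Calls of a direction for a small difference are therefore relative to the array's overall level. The tissue of cow 1 differed most between the days: the median absolute difference over all probe sets was 0.206 in her gland and ranged from 0.127 to 0.154 in the remaining 5. No arrays were identical among 66 pairs.

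The gene with the smallest p was ADGRF1, an adhesion G protein-coupled receptor of epithelia. Its log2 values were 5.19, 6.18 and 7.32 (lowest, median and highest of 6 cows) on day 21 and 6.27, 7.03 and 7.92 on day 40. The ranges overlapped between days, but the value was higher on day 40 in each of the 6 cows, by 0.36 to 1.45. The mean difference was 0.90 (SE 0.12), a 1.87-fold difference, with unadjusted p = 2.31e-05 and adjusted p = 0.252 in limma. HPSE, heparanase, which cleaves the heparan sulfate chains of the matrix, had values of 5.27, 6.13 and 7.24 on day 21 and 6.43, 6.65 and 8.22 on day 40. Its difference was 0.79 (SE 0.12), also positive in 6 of 6 cows. ARHGAP18, a GTPase-activating protein, differed by 0.53 (SE 0.08), and ARHGEF37, a guanine exchange factor, by 0.44 (SE 0.07).

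The 15 higher genes with the smallest p also included PCOLCE. This protein, which enhances the trimming of procollagen, had log2 values of 6.35, 7.12 and 7.44 on day 21 and 6.82, 7.56 and 7.82 on day 40, and a difference of 0.41 (SE 0.07). For SFRP2, a secreted modulator of Wnt signaling, the difference was 0.44 (SE 0.08), for PRELP, a small leucine-rich proteoglycan, 0.46 (SE 0.08), and for TIMP2, an inhibitor of metalloproteinases, 0.34 (SE 0.07). FST, follistatin, which binds activins, differed by 0.60 (SE 0.13). The water channel AQP1, found in capillary endothelium, differed by 0.55 (SE 0.09), with 1.03 in cow 1. HPGD, the enzyme that inactivates prostaglandins, differed by 0.54 (SE 0.10). RRAD, a small GTPase, CLIC2, a chloride channel protein, NXPE3 and MTMR11 completed the group, with differences of 0.46, 0.49, 0.34 and 0.38. All 15 were higher on day 40 in 6 of 6 cows, and they kept an unadjusted p of at most 0.00406 in limma when any 1 cow was left out. They were chosen for the smallest p among genes with 1 direction in at least 5 cows. This agreement therefore follows largely from the choice and is no independent evidence. Only in MTMR11 did the days not overlap among these 15, from 5.20 to 5.37 on day 21 and from 5.49 to 5.87 on day 40. Over all probe sets, 8 (0.0333%) had every day 40 value above every day 21 value.

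**Figure D1:**
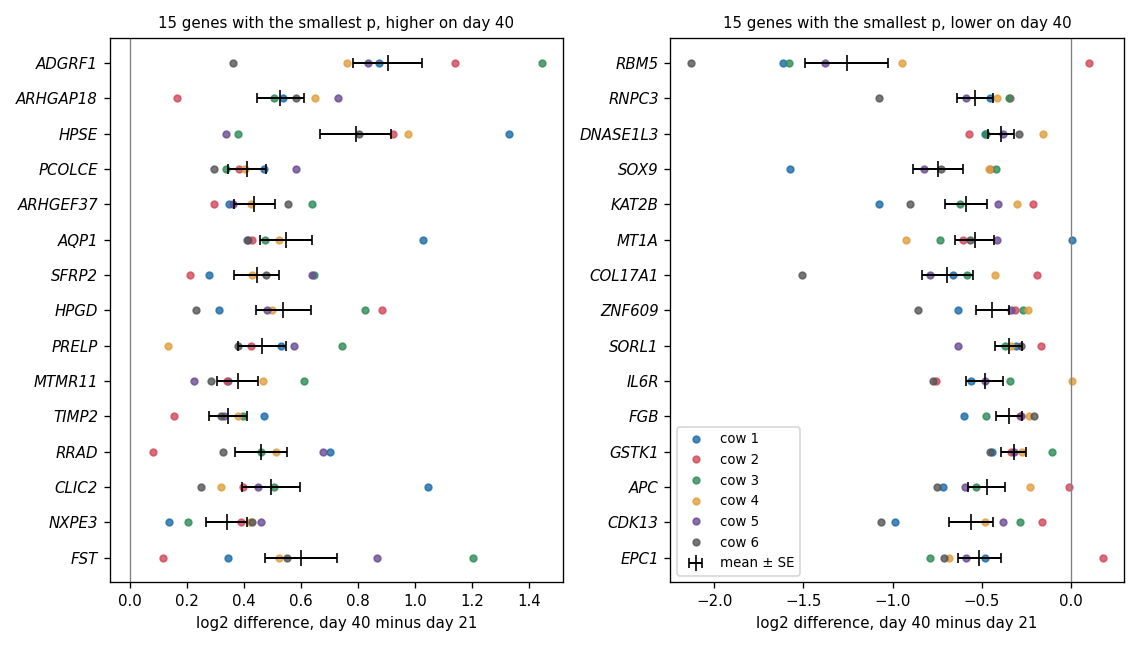
Difference within each cow, day 40 minus day 21, on the log2 scale, for the 15 named genes with the smallest p in each direction; each point is 1 of 6 cows, and the black bar is the mean with its SE from limma. All points of the higher genes lie above 0, whereas 1 cow lies on the other side of 0 in RBM5, MT1A, IL6R and EPC1 among the lower genes.

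By size, the largest of the higher genes other than ADGRF1 and HPSE was ASB11, a substrate receptor of a ubiquitin ligase, with values of 8.42, 10.37 and 11.28 on day 21 and 9.95, 10.81 and 12.15 on day 40 and a difference of 0.83 (SE 0.20). SERPINF1, a secreted factor that restrains vessel growth, had values of 5.25, 7.17 and 8.21 and then 6.51, 8.19 and 8.45. It differed by 0.78 (SE 0.19) and was higher in 6 of 6 cows, but by 0.03 in the cow with the smallest difference. TIMP3, a metalloproteinase inhibitor bound to the matrix, differed by 0.70 (SE 0.15) and AQP3, a channel for water and glycerol, by 0.72 (SE 0.21), of which cow 1 had 2.05. PTHLH, the hormone that draws calcium from bone in lactation, differed by 0.73 (SE 0.33), and here cow 1 had 2.93. Without cow 1 the difference of PTHLH was 0.29, and without cows 1 and 3 it was 0.19 and did not pass (unadjusted p = 0.0942 in limma).

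RBM5, an RNA-binding protein of splicing, had the largest difference in the other direction. Its values were 7.20, 8.23 and 8.64 on day 21 and 6.43, 6.86 and 7.30 on day 40. They fell by 0.94 or more in 5 cows and differed by 0.10 in cow 2, which had the lowest value on day 21 and the highest on day 40. The mean difference was −1.26 (SE 0.23), with unadjusted p = 0.000285 and adjusted p = 0.360 in limma, and 3 of 3 probe sets of the gene had the same sign. The study's own list of 75 genes, which was chosen with the day 21 arrays of these glands, includes RBM5, so its direction is not independent of that choice. RNPC3, a protein of the minor spliceosome, differed by −0.54 (SE 0.10), with −1.08 in cow 6, and was lower in 6 of 6 cows.

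The lower genes with the smallest p also included KAT2B and SOX9. KAT2B, a histone acetyltransferase, was lower by 0.59 on the log2 scale, from 6.70, 7.00 and 7.69 on day 21 to 6.29, 6.52 and 6.63 on day 40, with no overlap between the days. EPC1, a subunit of a histone acetyltransferase complex, differed by −0.51 (SE 0.12), ZNF609, a zinc finger protein, by −0.44 (SE 0.09), and CDK13, a kinase of RNA polymerase II, by −0.56 (SE 0.12). SOX9, a transcription factor of luminal progenitor cells, had values of 7.87, 8.35 and 11.41 on day 21 and 7.11, 7.76 and 9.83 on day 40. It was lower in 6 of 6 cows, with differences between −1.57 and −0.42 and a mean of −0.74 (SE 0.14), and cow 1 was the highest on both days. SOX9 is also in the study's list. APC, the scaffold that limits Wnt signaling, differed by −0.47 (SE 0.10).

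COL17A1, a transmembrane collagen of hemidesmosomes, had values of 6.12, 6.67 and 7.24 on day 21 and 5.30, 5.95 and 6.57 on day 40, a difference of −0.69 (SE 0.14) that was negative in 6 of 6 cows. DNASE1L3, a secreted nuclease, differed by −0.39 (SE 0.07), SORL1, a sorting receptor, by −0.35 (SE 0.07), GSTK1, a glutathione transferase, by −0.32 (SE 0.07), and FGB, the beta chain of fibrinogen, by −0.35 (SE 0.07). MT1A, a metallothionein, differed by −0.54 (SE 0.11) and IL6R, the receptor of interleukin 6, by −0.48 (SE 0.10), each lower in 5 of 6 cows. In KAT2B, FGB, APC and CDK13 every day 40 value was below every day 21 value, as in 24 probe sets of all (0.0999%). FGB was dim, with a day 40 median of 4.75, and reached the level required for naming only on day 21. By size, JUN (−1.03), ALCAM (−0.89), IQGAP1 (−0.82), KLF11 (−0.78), ZBTB44 (−0.78) and PHF3 (−0.72) were next to RBM5. IQGAP1 and PHF3 likewise had a mean under 5 on day 40 and were eligible for this ranking only through day 21, the day on which they were high. JUN, IQGAP1 and KLF11 are in the study's list, and JUN differed by −3.02 in cow 1 and by a mean of −0.63 without that cow. Another probe set had the opposite sign for AQP1, PRELP, COL17A1, SORL1, FGB, GSTK1, APC, CDK13 and EPC1, at most 0.13 in size.

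**Figure D2:**
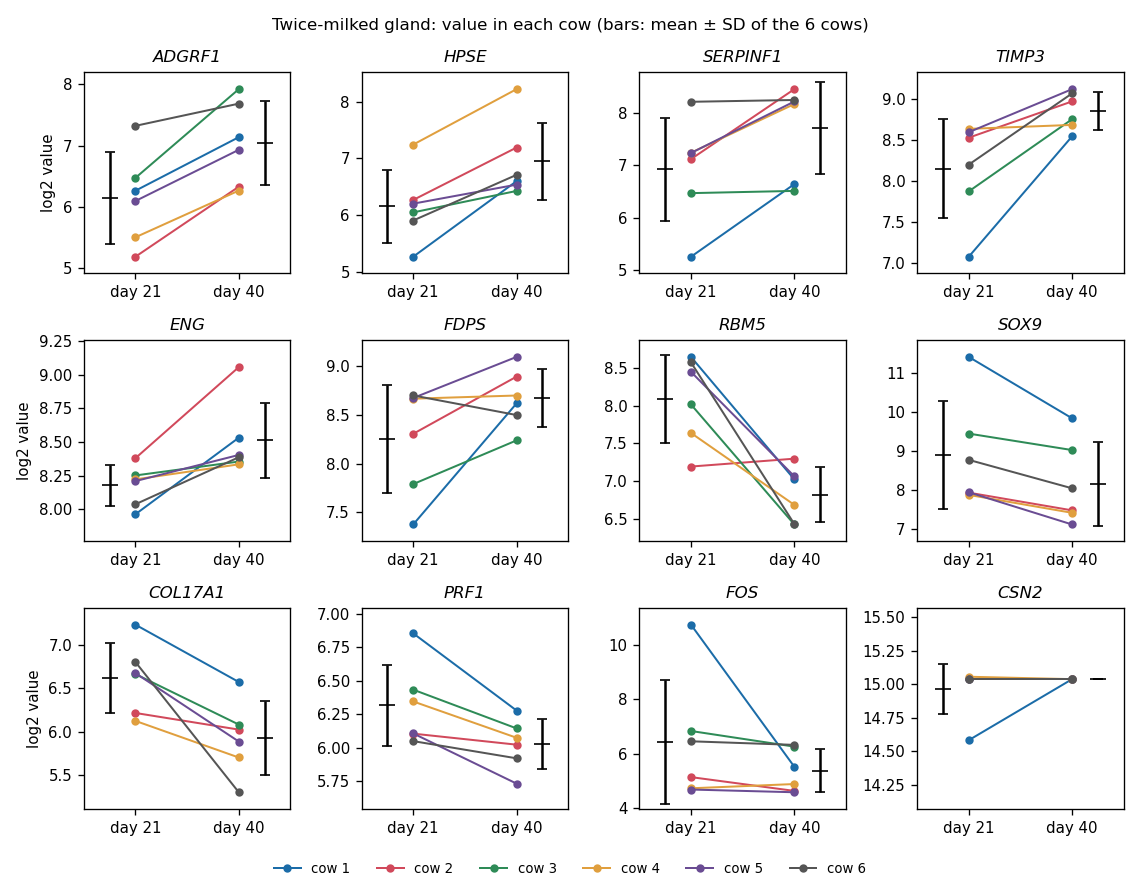
Log2 value on day 21 and day 40 in each of the 6 cows for 12 genes, with each line 1 cow and the bars the mean ± SD of the 6 cows for that day; the vertical scale differs between panels. Lines run upward in 6 of 6 cows for ADGRF1, HPSE, SERPINF1, TIMP3 and ENG and downward in 6 of 6 for SOX9, COL17A1 and PRF1, whereas the mean differences of FOS (−1.06) and CSN2 (0.07) come mostly from cow 1.

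Gene lists were read with 1 probe set for each gene, and over all 9172 genes 4.55% were higher, 3.76% were lower and the median difference was 0.01. Among 34 measured genes of fibroblasts and the extracellular matrix, 10 were higher, 1 was lower, 29 had a positive difference and the median was 0.16. The list's mean log2 value was from 7.69 to 8.17 over the cows on day 21 and from 7.75 to 8.36 on day 40. BGN, the proteoglycan biglycan, had values of 8.84, 9.34 and 9.98 on day 21 and 9.08, 9.62 and 10.32 on day 40, and a difference of 0.29 (SE 0.06) within a narrow range of 0.21 to 0.37 in the 6 cows. Collagen genes followed, with 0.41 (SE 0.09) for COL12A1, 0.43 (SE 0.10) for COL6A1, 0.49 (SE 0.16) for COL3A1 and 0.34 (SE 0.13) for COL1A1. SPARC, which binds collagen, differed by 0.26 (SE 0.07). TIMP3, the elastic fiber protein FBLN5, dermatopontin (DPT) and the crosslinking enzyme LOXL1 were the other higher genes.

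The 1 lower gene of the matrix list was TNC, tenascin C, with −0.17 (SE 0.07) and another probe set at 0.30. The list's median was positive in 6 of 6 cows, from 0.08 to 0.40, and cow 2 was the highest. With a single cow left out from 7 genes (without cow 2) to 13 (without cow 6) were higher, and without cows 1 and 3 it was 13. Scaling to reference genes gave 18. COL1A1 did not pass without cow 1, cow 2 or cow 5 (highest unadjusted p = 0.0963 in limma) and had a second probe set at −0.05, and 1 of 3 probe sets of COL6A1 was at −0.08. In other lists CTSK, a collagen-degrading protease, was higher by 0.29 (SE 0.08), and TGFB1, a growth factor that induces matrix genes, by 0.28 (SE 0.12). They were chosen after their values were seen, from the 30 lysosomal and autophagy genes, of which 14 had a positive and 16 a negative difference, and the 27 genes of TGF-beta signaling, with 17 and 10. Of 18 markers of myoepithelial and smooth muscle cells, 3 were higher (CALD1, SMTN and CAV1, by 0.26, 0.23 and 0.25) and 0 lower, with a median of 0.07, and from 1 to 5 were higher with a single cow left out. Adipocyte markers had a median of 0.04 with 1 higher and 1 lower of 12.

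Of 17 endothelial markers 7 were higher, 0 were lower and 15 had a positive difference, with a median of 0.17. The mean log2 value over the list was from 6.83 to 7.20 on day 21 and from 6.91 to 7.31 on day 40, and 2 of the 17 were at a mean under 5. ENG, endoglin, a co-receptor for TGF-beta on endothelium, had values of 7.96, 8.21 and 8.38 on day 21 and 8.33, 8.39 and 9.06 on day 40. Its difference was 0.34 (SE 0.09) and positive in 6 of 6 cows, with the largest, 0.68, in cow 2. CDH5, the cadherin of endothelial junctions, had values of 7.90, 8.25 and 8.49 and then 8.33, 8.58 and 8.72, and a difference of 0.32 (SE 0.09). PLVAP, a protein of capillary diaphragms, differed by 0.32 (SE 0.10). For EGFL7, FLT1, EMCN and ROBO4, which are secreted by or displayed on endothelial cells, the differences were 0.23, 0.24, 0.26 and 0.26. Of 3 probe sets of FLT1 only the one used had a positive difference. Leaving out cow 4 reduced the higher genes to 4, and without cows 1 and 3 there were also 4 (ENG, CDH5, EGFL7 and ROBO4). Matrix and endothelial markers both lay above the median of all genes and the part that an altered share of stroma in the biopsy had in either was not tested here. The study counted epithelial and stromal cells in sections of its biopsies and reported no effect of treatment or day on their proportions.

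Among 16 genes of cholesterol synthesis and uptake 7 were higher, 0 were lower and 15 had a positive difference, with a median of 0.28, the highest of the 45 lists. MSMO1, a sterol oxidase, had values of 10.37, 10.98 and 11.18 on day 21 and 10.96, 11.06 and 11.55 on day 40 and a difference of 0.34 (SE 0.10), positive in 5 of 6 cows. NSDHL, a dehydrogenase of the same steps, differed by 0.46 (SE 0.15). FDPS, farnesyl diphosphate synthase, had values of 7.38, 8.49 and 8.70 and then 8.24, 8.66 and 9.10, with a difference of 0.42 (SE 0.16) that was 1.24 in cow 1 and −0.20 in cow 6. The sterol reductase TM7SF2 differed by 0.27 (SE 0.10), the demethylase CYP51A1 by 0.36 (SE 0.14), phosphomevalonate kinase (PMVK) by 0.26 (SE 0.11) and squalene synthase (FDFT1) by 0.24 (SE 0.10). The 3 probe sets of FDFT1 ranged from −0.07 to 0.64, and 2 of them had a positive difference. By cow the list's median was 0.55, 0.43, 0.31, −0.01, 0.55 and −0.20 in cows 1 to 6, so that cows 4 and 6 did not share the direction. The count of higher genes was 5 without cow 1, 4 without cow 2 or cow 3, 3 without cow 5, 11 without cow 6 and 2 without cows 1 and 3. INSIG1, a sterol sensor that is induced with this pathway, had a difference of 0.67 (SE 0.34), from −0.95 to 2.32 over the cows, and did not pass.

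Genes of milk fat synthesis were mostly not called. Of 21 genes of de novo fatty acid synthesis 1 was higher (SCD, the desaturase, by 0.33, SE 0.14), and the median was 0.09. SCD was 11.93 in cow 1 on day 21 against 12.71 to 13.07 in the others, and without cow 1 its difference was 0.16 and did not pass (unadjusted p = 0.0687 in limma). FASN, fatty acid synthase, had values of 12.28, 12.88 and 12.99 on day 21 and 12.82, 12.91 and 13.15 on day 40, with a difference of 0.14 (SE 0.10). ACACA, acetyl-CoA carboxylase, had 0.09 (SE 0.13), and ACSS2, which activates acetate, 0.53 (SE 0.26), of which cow 1 had 2.26. LPL, which releases fatty acids from lipoproteins, had 0.29 (SE 0.22), and the transporter CD36 had 0.17 (SE 0.09). Of 14 genes of fatty acid uptake and activation FABP4 and ACSL3 were higher, by 0.22 and 0.18, and of 19 genes of triglyceride synthesis and fat globule secretion MUC1 was, by 0.46 (SE 0.20). Another probe set of ACSL3 was at −0.0041. Without cow 1 the difference of MUC1 was 0.20, and without cows 1 and 3 it did not pass (unadjusted p = 0.0839 in limma). In cow 1 the medians of the lists of fatty acid uptake and of fat globule secretion were 0.65 and 0.70, and in the other 5 cows they were between −0.05 and 0.11. Without cow 1 the first list had 0 genes called.

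Milk protein genes showed 0 calls of 7 in either direction, with a median of 0.06. CSN2, beta-casein, was at 15.04 in 6 of 6 cows on day 40, and on day 21 it was 14.58 in cow 1 and from 15.04 to 15.06 in the others. Equal values at the top of the normalized scale leave little room for a difference to be seen. CSN1S1, CSN1S2 and CSN3, the other caseins, had differences of 0.05 (SE 0.08), 0.06 (SE 0.07) and 0.06 (SE 0.07). LALBA, alpha-lactalbumin, had −0.00138 (SE 0.06), PAEP, beta-lactoglobulin, −0.01 (SE 0.06), and GLYCAM1 0.06 (SE 0.07). These differences were no larger than about their SE, and the lack of a call does not show equal levels.

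Of 16 markers of secretory epithelium 1 was higher and 1 was lower. They comprised CSN2, CSN3, LALBA, PAEP, ELF5, XDH, BTN1A1, LPO, PIGR, MUC1, MUC15, EPCAM, KRT8, KRT18, SLC34A2 and ABCG2. MUC1 was the higher one, and KRT18, a keratin of luminal cells, the lower one, with −0.38 (SE 0.10) and values of 8.10, 8.67 and 11.05 on day 21 and 7.73, 8.44 and 10.15 on day 40. The list's mean was 11.94 in the lowest cow on day 21 and 12.49 in the median cow. On day 40 it was from 12.48 to 12.64. Cow 1 had the low day 21 value of LPO, 9.69, where the median was 12.64, and of SLC34A2, 8.44, where the median was 11.56, together with the highest value of SOX9, of KRT18 and of FOS, 10.74 for the last of these.

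**Figure D3:**
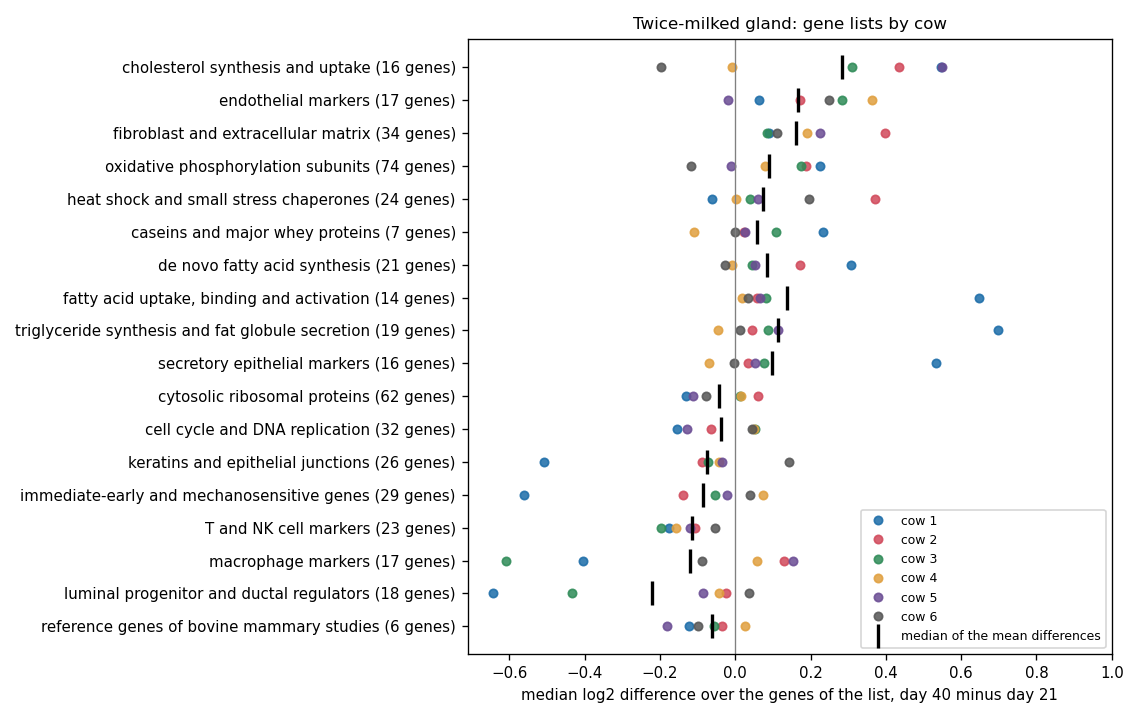
Median log2 difference, day 40 minus day 21, over the genes of 18 lists (number of genes with a probe set in parentheses); each point is 1 of 6 cows, and the black mark is the median over the genes of the mean difference. The matrix list lies above 0 and the T and NK cell list below 0 in 6 of 6 cows, whereas in the lists of fat uptake, fat secretion, secretory markers, keratins and immediate-early genes cow 1 stands apart from the other 5.

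Of 18 luminal progenitor and ductal regulators 4 were lower, 0 were higher and 4 had a positive difference, with a median of −0.22. They were SOX9, SOX4 (−0.44, SE 0.14), the receptor kinase KIT (−0.49, SE 0.16) and the forkhead factor FOXQ1 (−0.60, SE 0.23). All 4 are in the study's list, so they are no independent evidence of the direction. KIT is there with another probe set than the one read here. KIT had values of 7.21, 7.53 and 9.75 on day 21 and 7.02, 7.14 and 8.30 on day 40, lower in 6 of 6 cows but by 1.45 in cow 1. The list's median was −0.64 in cow 1, −0.43 in cow 3 and lay from −0.09 to 0.04 in the remaining 4. Without cows 1 and 3 it was −0.02, and SOX9 and KIT remained lower, by 0.62 and 0.26. Of 26 keratins and epithelial junction genes 4 were lower (KRT18, KRT15 and the claudins CLDN4 and CLDN1), 0 were higher and the median was −0.08. Without cow 1 the median of the list turned to 0.0022, with 4 genes lower and 2 higher. CLDN4 differed by −0.40 (SE 0.13), KRT15 by −0.44 (SE 0.18) and CLDN1 by −0.52 (SE 0.19). Without cows 1 and 3, none of these 3 passed and 2 other genes were higher. CLDN4 and KRT15 are in the study's list as well, KRT15 with another probe set than the one read here.

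Immediate-early genes, which respond within minutes to stretch or growth factors, showed 5 lower and 1 higher of 29, with a median of −0.09 that turned to 0.02 without cows 1 and 3. KLF11 (−0.56, SE 0.18, at its brightest probe set), ZFP36L1 (−0.31, SE 0.12), GADD45B (−0.24, SE 0.10), JUNB (−0.22, SE 0.09) and ANKRD1 (−0.16, SE 0.07) were lower, and THBS1 was higher with 0.26 (SE 0.11). JUN entered this list with the brightest of its 5 probe sets, which differed by −0.27 (SE 0.21) and did not pass, and the −1.03 given above came from another of them. THBS1 had a positive difference in 3 of 6 probe sets, the lowest at −0.16, and without cow 1 it differed by 0.14 and did not pass (unadjusted p = 0.113 in limma). THBS1, KLF11, JUN, FOS and EGR1 are in the study's list. The study's entries of THBS1, KLF11 and JUN were other probe sets than those that entered the list read here. ANKRD1 was dim, with a median of 4.35 on day 21. Another probe set had the opposite sign for ZFP36L1 (0.016), ANKRD1 (0.0069) and EGR1 (0.0047). FOS had values of 4.69, 5.80 and 10.74 on day 21 and 4.59, 5.20 and 6.32 on day 40. Its difference of −1.06 (SE 0.60) did not pass and was −5.21 in cow 1 and −0.23 on average in the others, and EGR1, at −0.56 (SE 0.36), did not pass either. Leaving out cow 1, cow 2 or cow 6 reduced the lower genes of the list to 2.

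Of 23 T and NK cell markers 7 were lower, 0 were higher and 4 had a positive difference, with a median of −0.12 that was negative in 6 of 6 cows, from −0.20 to −0.05. The list's mean log2 value was from 6.02 to 6.35 on day 21 and from 5.95 to 6.24 on day 40, and 5 of the 23 were at a mean under 5. PRF1, perforin of cytotoxic cells, had values of 6.05, 6.23 and 6.85 on day 21 and 5.73, 6.05 and 6.28 on day 40, and was lower in 6 of 6 cows with a difference of −0.29 (SE 0.08). The chemokine CCL5 differed by −0.30 (SE 0.09), the T cell receptors CD2 by −0.24 (SE 0.08), CD8A by −0.25 (SE 0.08), CD7 by −0.22 (SE 0.08) and CD3G by −0.21 (SE 0.08), and the NK cell receptor NCR1 by −0.23 (SE 0.08). Only 1 of 3 probe sets of CD2 had a negative difference. Without cows 1 and 3, 3 of the 7 were lower (PRF1, CD8A and NCR1), and scaling to reference genes left 2 of the list. Macrophage markers had 1 lower of 17 (CYBB, −0.41, SE 0.14) and a median of −0.12. By cow that median was −0.61 in cow 3 and −0.40 in cow 1, and it was positive in 3 of 6 cows. B and plasma cell markers had 1 higher of 10 (IGHM, the heavy chain of immunoglobulin M, 0.32, SE 0.09, higher in 6 of 6 cows) and a median of 0.12. That list includes PIGR (0.22), which is also among the secretory epithelium markers above, so its median is not that of B and plasma cells alone. Neutrophil markers had 1 higher of 14 (LTF, lactoferrin, which epithelium also makes, 0.27, SE 0.11) and a second LTF probe set at −0.29.

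Acute phase and antimicrobial proteins were called in both directions, 3 lower and 2 higher of 25, with a median of −0.04. Without cow 5 there were 0 higher in limma, and without cows 1 and 3 there were 5 higher and 2 lower and the median was 0.0099. LBP, which binds bacterial lipopolysaccharide, had values of 8.84, 9.34 and 10.78 on day 21 and 8.48, 8.87 and 9.87 on day 40, with a difference of −0.42 (SE 0.11). SAA3, the mammary serum amyloid, had values of 8.59, 9.49 and 13.81 and then 7.78, 9.37 and 13.28, and was lower in 6 of 6 cows, with a difference of −0.52 (SE 0.18). The chemokine CCL2 differed by −0.57 (SE 0.21), and by −0.16 without cows 1 and 3, where it did not pass (unadjusted p = 0.210 in limma). PTX3, a pentraxin, and LTF were higher, PTX3 at a dim median of 4.51 on day 40. Of 22 complement genes C4A (0.32, SE 0.12) and C7 (0.50, SE 0.20) were higher and 2 were lower. C7 had −0.67 in the cow with the lowest difference and did not pass without cow 1 (unadjusted p = 0.0780 in limma), and the higher genes of the list numbered 0 without cow 4 and 5 without cow 3. Of 33 genes of antigen presentation and interferon response 3 were lower (OAS1X, PSMB9 and TAP1, by 0.34, 0.30 and 0.25 on the log2 scale) and 1 was higher. SAA3, LTF and the probe set of CCL2 are in the study's list and so are not independent of its choice. CHI3L1 and CLU, which are also in that list, had 0.01 (SE 0.32) and −0.04 (SE 0.23), with cows on either side of 0.

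Lists of energy supply and protein folding had small positive medians. Of 74 subunits of oxidative phosphorylation 9 were higher, 0 were lower and 63 had a positive difference, with a median of 0.09. Among them NDUFA12, of complex I, differed by 0.20 (SE 0.07), SDHB, of complex II, by 0.16 (SE 0.06), and COX5A, of complex IV, by 0.23 (SE 0.09). The list's median was positive in cows 1 to 4 and −0.01 and −0.12 in cows 5 and 6. Leaving out cow 1 or cow 2 left 1 higher gene, leaving out cow 3 left 3, leaving out cows 1 and 3 left 0, and leaving out cow 6 gave 15. Scaling to reference genes gave 31 and a median of 0.15. Of 24 heat shock genes and small chaperones 4 were higher (HSPB6, CHORDC1, SERPINH1 and HSF2, by 0.39, 0.43, 0.22 and 0.21) with a median of 0.07, and without cow 2 only 1 was. In the unfolded protein response HYOU1 and HSP90B1, chaperones of the endoplasmic reticulum, were higher of 20, by 0.29 and 0.24, whereas HSPA5 had 0.05 (SE 0.17). That count was 0 without cow 1, cow 2 or cow 5 and 5 without cow 4 or cow 6, and 3 of 5 probe sets of HYOU1 had a positive difference, the lowest being −0.15. Of 49 genes of secretory transport 2 were higher (SRPRA and SAR1B) with a median of 0.11 that was 0.02 without cow 1. Of 62 ribosomal proteins 1 was higher and 7 had a positive difference, with a median of −0.04.

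Genes of lactation hormones and growth control were called in both directions, where 4.55% of all genes were higher and 3.76% were lower. Of 10 genes of prolactin and growth hormone signaling 1 was higher and 1 was lower. Of 14 genes of the IGF axis 2 were higher and 0 were lower. PRLR, the prolactin receptor, had values of 8.82, 9.33 and 9.99 on day 21 and 8.86, 9.11 and 9.69 on day 40 and differed by −0.21 (SE 0.09), and STAT5B, its signal transducer, by 0.26 (SE 0.11). GHR had −0.19 (SE 0.12), IGF1 0.03 (SE 0.07), IGFBP3 −0.01 (SE 0.15) and IGFBP5 0.16 (SE 0.09), none of which passed, and IGFBP7, abundant in vessels, was higher with 0.21 (SE 0.09). Only 5 of 11 probe sets of GHR and 1 of 4 of IGF1 had the sign given, and another of IGFBP3 was at 0.25. Of 32 genes of the cell cycle and DNA replication 0 were called in limma, with a median of −0.04, and 11 of the 32 were at a mean under 5. In calcium handling PTHLH, the calcium channel ORAI1 (0.42, SE 0.15) and its sensor STIM1 (0.15, SE 0.06) were higher of 20 genes, and ORAI1 had 1.34 in cow 1. In the list of mTORC1 and energy sensing 3 were higher (RHEB, DDIT4 and PPARGC1A) and 3 lower (TSC1, SESN2 and PRKAA2), by 0.20 to 0.34 in size, and with a single cow left out the list had from 0 to 3 higher and from 0 to 2 lower genes. PRKAA2 was dim, with a median of 4.10 on day 21 and 3.89 on day 40, and another probe set of SESN2 was at 0.09. Of 14 glucocorticoid-responsive genes ZBTB16 (0.46, SE 0.13) and DDIT4 were higher and the metallothioneins MT1A and MT2A lower. NFE2L2, the transcription factor of antioxidant genes, differed by −0.28 (SE 0.08) and was lower in 6 of 6 cows, whereas GPX3, a secreted peroxidase, differed by 0.34 (SE 0.12). SLC2A1, PDK4 and FKBP5 had 0.17 (SE 0.16), 0.08 (SE 0.24) and 0.13 (SE 0.18) and did not pass. Of 3 probe sets of PDK4 only the one used had a positive difference. CPT1A, STAT5A, XBP1, MKI67, TOP2A, PER1 and DBP had no named probe set and were not analysed here.

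The same days were compared in the other rear gland of the same cows, which had been milked 4× until day 21. There 25 probe sets (0.104%) passed the adjusted p and 2423 (10.1%) an unadjusted p under 0.05. The glands do not share arrays, but they share cows and dates. Of the 836 probe sets that were higher in the 2× gland, 595 (71.2%) had a positive difference in the other gland, where 55.7% of all probe sets did, and 120 were also called higher there. Of the 1052 that were lower, 722 (68.6%) had a negative difference, against 44.3% of all, and 265 were also called lower. The share of all probe sets called in the other gland is given only for either direction (10.1%). The counts of 120 and 265 are therefore read no further. The difference between the glands in the change from day 21 to day 40 passed the adjusted p in 0 probe sets in limma, where the smallest adjusted p was 0.284, and an unadjusted p under 0.05 in 2647 (11.0%), 1302 with a more positive change in the 4× gland and 1345 with a less positive one.

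The named genes fell into different places in this comparison. Most were named for their change in the 2× gland, which is 1 side of the difference between glands, so these values describe them and are no independent evidence. The study's list, moreover, was chosen for a difference between the glands that changed from day 21 to day 23. The day 21 arrays used here entered that choice. RBM5, SAA3, IQGAP1, JUN, CLDN4, KIT, FOXQ1 and SOX9 are in the list, KIT with another probe set than the one read here. ADGRF1 differed by 0.76 in the other gland, ASB11 by 0.82, SERPINF1 by 0.81 and SOX9 by −0.78, and the cholesterol list had a median of 0.29 there and the matrix list 0.21. In none of these 4 genes did the glands differ at an unadjusted p under 0.05. The endothelial list had a median of −0.02 there, and for 5 of its 17 genes the change was less positive in the 4× gland at that threshold (11.0% of all probe sets passed it in either direction), among them CDH5 (by −0.38, SE 0.12, unadjusted p = 0.00845 in limma) and PLVAP (by −0.52, SE 0.16, unadjusted p = 0.00778). MTMR11 had 0.01 in the other gland, and its change there was below that of the 2× gland in 6 of 6 cows. RBM5 differed by −0.29 in the other gland and by 0.97 (SE 0.15) between glands, with a more positive change in the 4× gland in 6 of 6 cows (unadjusted p = 3.55e-05, adjusted p = 0.284 in limma), and its day 21 means were 8.08 in the 2× and 7.34 in the 4× gland. COL17A1, at 6.62 and 6.06 on day 21, differed by 0.21 in the other gland and by 0.90 (SE 0.16) between glands. For SAA3 the difference between the glands was 0.92 (SE 0.25), for IQGAP1 0.95 (SE 0.26), for JUN 1.03 (SE 0.28), for CLDN4 0.63 (SE 0.16), for KIT 0.55 (SE 0.15), for FOXQ1 0.68 (SE 0.19) and for KAT2B 0.49 (SE 0.14), each with an unadjusted p under 0.05. In the luminal list 7 of 18 genes passed the same threshold, all with a more positive change in the 4× gland, and among the keratins and junctions 7 of 26 did, 5 with a more positive and 2 with a less positive change. None of these genes passed after adjustment.

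**Figure D4:**
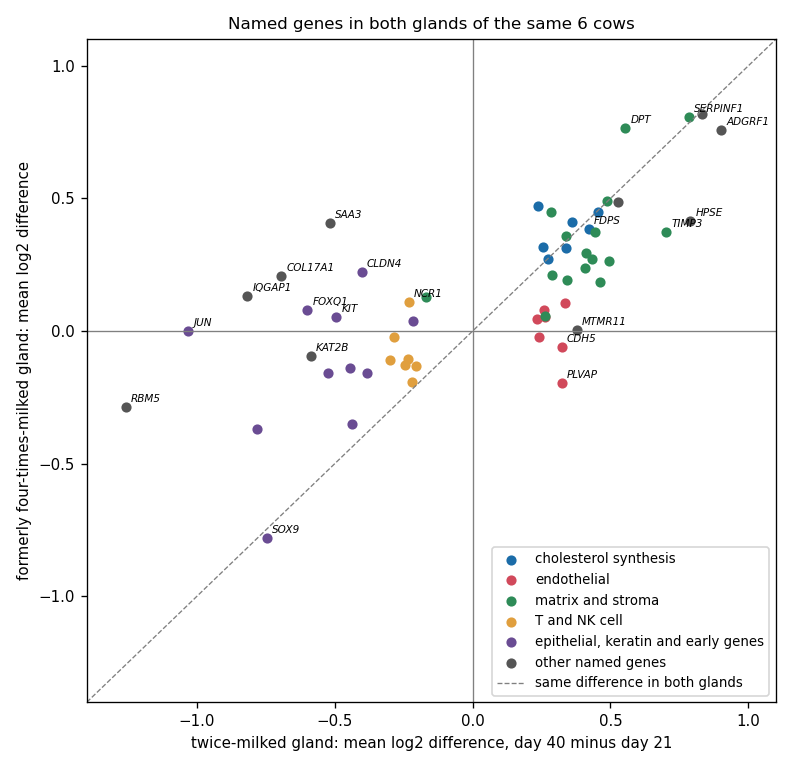
Mean log2 difference, day 40 minus day 21, in the 2× gland (horizontal axis) and in the formerly 4× gland (vertical axis) of the same 6 cows for genes named in the text, colored by group; the dashed line marks equal differences. Cholesterol genes, SERPINF1 and SOX9 lie near the line, the endothelial genes lie near 0 on the vertical axis, and RBM5, COL17A1, JUN, IQGAP1 and SAA3 lie well above the line.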

How the data were processed

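Mammary biopsies were profiled on the Affymetrix GeneChip Bovine Genome Array, 1 array for each biopsy. The authors deposited log2 values, made with the Robust Multichip Average (background correction, normalization across arrays and a summary for each probe set); its version is not given in the sources used here. Probe level signals were not used here. Groups and replicate numbers came from the labels, and arrays with the same replicate number were taken as 1 cow. Of 24128 probe sets 112 controls were left out. By the array's annotation 13318 probe sets carried a single symbol, 86 carried more and 10724 had none; 23 of the last were named from the study's list, and 9172 genes were measured. No sequences were printed, since none were at hand.

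The difference within each cow was fitted with limma 3.58.1 in R 4.3.3 (6 differences), and p-values were adjusted by the method of Benjamini and Hochberg over 24016 probe sets; the study's methods do not name the test of its arrays. After group means were removed, arrays of 1 cow correlated in 6 of 6 cows (0.381 to 0.724) and each day 21 array was most like its own cow's day 40 array. On simulated data for this comparison, with 50 of 24016 probe sets changed at each size, 56% of changes of 0.5 and 84% of changes of 1 passed the adjusted p, and 5.21% of unchanged probe sets an unadjusted p under 0.05. Changes of 2 and 4 were planted in the same run and adjusted together with these. The simulated noise was independent between probe sets, and each change was equal in all 6 cows. These shares therefore do not tell how many real changes were missed. Lists used the probe set with the highest mean for each gene. Named were, among single-symbol probe sets with a mean of at least 5 on day 21 or on day 40 and 1 direction in at least 5 cows, the 15 with the smallest p and the 8 with the largest difference in each direction, the 3 members of each list with the smallest p, all milk protein and secretory genes and a preset group of genes; other members are named because they passed, after their values were seen. Members, lists and tests were chosen with earlier results of these data known. Alternatives are given at the end. The number of arrays limits the precision. Plots were drawn with matplotlib 3.10.9 and tables made with pandas 2.3.3.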

Additional observations from a re-analysis of the deposited data

Results flagged for a closer look

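In 34 of 211 genes and lists of the report, the difference of 1 cow lay farther from the other 5 than Dixon's 95% limit for 6 values allows, a gap that chance gives in about 1 of 20 groups (5%). That rate holds for independent groups that were not chosen by their values. Many of these genes were so chosen, some are also in the lists, and all items share the same 6 cows. The count therefore cannot be set against that rate. Cow 1 was that cow in 28 of the 34. Her differences, day 40 minus day 21 on the log2 scale, were high for genes of fat and milk secretion: 2.26 for ACSS2, 1.71 for LPL, 1.17 for SCD, 0.89 for ACACA, 0.65 for CD36, 1.78 for MUC1, 1.83 for MUC15, 2.35 for LPO, 1.93 for ABCG2 and 0.46 for CSN2. They were also high for AQP1 (1.03), CLIC2 (1.04), AQP3 (2.05), PTHLH (2.93), ORAI1 (1.34), FBLN5 (1.59) and FKBP5 (1.30). They were low for SOX9 (−1.57), KRT15 (−1.53), KIT (−1.45) and FOS (−5.21).

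The list medians of cow 1 that stood apart were 0.65 for fatty acid uptake, 0.70 for triglyceride synthesis and fat globule secretion, 0.53 for secretory markers, −0.56 for immediate-early genes, −0.51 for keratins and junctions, −0.14 for the IGF axis and −0.087 for the BCL2 family. The array weights of limma gave the arrays of cow 1 the lowest weight, 0.528, against 0.843 to 1.45 for the other cows. These weights were equal for both arrays of each cow. They come from the same differences and are no independent evidence. Whether her day 21 biopsy or her gland differed was not tested.

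Other cows stood apart in 6 results: cow 6 in RNPC3 (−1.08) and in the list of calcium, serotonin and PTHLH (0.13), cow 2 in EPC1 (0.18), cow 3 in CTSK (−0.027), and cow 5 in PRLR (0.25) and PTX3 (1.33).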

How the results depend on the processing

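Probe sets past the adjusted p stayed at 0 in all alternatives except the fit of 36 arrays with cow as a replicate block, which gave 1. With no replicate block, 239 probe sets were higher and 417 lower at an unadjusted p under 0.05 (836 and 1052 with it), and 633 differed between glands (2647 with it). There were 490 higher in the 18 arrays of the 2× glands, 401 higher and 329 lower with 1 probe set for each gene, 695 lower without dim probe sets and 675 lower without cows 1 and 3. Scaling to reference genes gave 2140 higher and 414 lower and moved the median of all probe sets from −0.01 to 0.06. Leaving out 1 cow gave 618 to 1121 higher, 760 to 1243 lower and 1940 to 2756 differing between glands, with 0 past the adjusted p in each. Other counts stayed within 1.5 times.

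Of 131 called genes of the text, none changed sign under any alternative run. Calls were lost by 91 with no replicate block, 59 without moderation, 51 without cows 1 and 3, 50 in the 18 arrays, 43 in the 36 arrays, 22 to 43 with 1 cow left out and at most 15 otherwise. Signs that turned were those of genes not called. Without cows 1 and 3 they were ACACA (−0.087), LPL (−0.063), CSN1S1 (−0.019), CSN2 (−0.0045), CSN3 (−0.014), GLYCAM1 (−0.012), IGFBP3 (0.27), HSPA5 (−0.059), CLU (0.42), SLC2A1 (−0.050), FKBP5 (−0.013), ELF5 (−0.038), XDH (−0.010), PIGR (−0.0091), MUC15 (−0.016), EPCAM (0.013), KRT8 (0.047) and ABCG2 (−0.0052). Scaling to reference genes turned LALBA (0.063), PAEP (0.050), IGFBP3 (0.050) and CLU (0.028), array weights LALBA (0.0046), IGFBP3 (0.055), CHI3L1 (−0.062) and CLU (0.0064), and centering LALBA (0.0080).

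With 1 cow left out, ACACA was −0.075 to 0.15, CHI3L1 −0.35 to 0.28, CLU −0.24 to 0.18, CSN2 −0.0036 to 0.091, ELF5 −0.018 to 0.055, EPCAM −0.13 to 0.0087, FKBP5 −0.10 to 0.25, HSPA5 −0.048 to 0.23, IGF1 −0.0043 to 0.056, IGFBP3 −0.12 to 0.12, KRT8 −0.25 to 0.019, LALBA −0.012 to 0.012, PDK4 −0.15 to 0.31 and SLC2A1 −0.027 to 0.27. The cause of these shifts was not tested. Probe sets near background (7609 at a mean under 5) and those at the top of the scale limit what can be seen.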
